A study of Mus musculus with 12 samples.

Results

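Mthfd1, Mthfd2, Mthfd1l, Tyms, Mtr, Mat2a and Ahcy are enzymes of the folate cycle and the methionine cycle. Those cycles take up the carbon units that serine releases, and Cbs takes homocysteine out of the methionine cycle. These 8 enzymes were listed by name as a follow-up of the rise of Psph, the last enzyme of serine synthesis. No measured value of theirs was used to pick them. All 8 are listed among the 41255 genes of the mRNA table, 7 of them have reads there, and the same 7 are among the 10080 genes of the footprint table. The values come from Ba/F3, a mouse lymphoid cell line that needs interleukin 3. Its cells carried human RPL10 in a retroviral vector, either wild type (WT) or with the R98S substitution, while an shRNA lowered the endogenous Rpl10, and each clone had grown from a single cell. R98S clones 11, 13 and 35 and WT clones 28, 29 and 36 each gave 1 ribosome footprinting library and 1 mRNA library, 12 in all, after 5 min in 100 µg/ml cycloheximide. With 3 clones a genotype, each difference is read against the spread between clones of 1 genotype.

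The folate cycle carries single-carbon groups at several oxidation states in the cytosol and in mitochondria, and it feeds purine synthesis, thymidylate synthesis and the methylation of homocysteine. The methionine cycle turns methionine into S-adenosylmethionine, the methyl donor of the cell, then into S-adenosylhomocysteine and homocysteine, and back to methionine. Homocysteine can also leave that cycle by transsulfuration, toward cysteine, and dividing lymphoid cells are known for a high demand for the products of both cycles.

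The mRNA libraries held 22178094, 21217231 and 20576796 reads in R98S clones 11, 13 and 35 and 6617457, 21620993 and 23136595 in WT clones 28, 29 and 36. The footprint libraries held 10883086, 6827929 and 3477723 reads in the R98S clones and 7162305, 5619539 and 4611390 in the WT clones, in the same order. These totals are the reads counted over the genes listed for each assay. The footprint list holds 10080 genes, each with reads in every footprint library. The mRNA library of WT clone 28 was thus the shallowest of its kind. WT clones 28 and 36 also matched their own footprints less well than the others did: across 9043 genes, which are not independent replicates, the deviations of mRNA and of footprints (RPF) from their genotype means had an r of 0.218 in WT clone 28 and 0.311 in WT clone 36, against 0.609 to 0.681 in the other clones. Levels are given as normalized counts, which are gene reads divided by the DESeq2 size factor of the library. Translation efficiency (TE) is the ratio of RPF to mRNA within a clone, and since the tables were normalized separately, it has no absolute scale.

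Each enzyme was compared between R98S and WT clones in mRNA, in RPF and in TE, at an adjusted p of 0.1. With limma, 0 of the 7 tested enzymes passed in mRNA, where 6.94% of 11344 genes did (3.03% higher and 3.91% lower in R98S), 0 of 7 passed in RPF, where 7.76% of 9580 genes did (3.13% higher and 4.62% lower), and 0 of 7 passed in TE, where 0.0221% of 9043 genes did. At an unadjusted p under 0.05 the counts were 1, 1 and 0, Mat2a being the enzyme in mRNA and in RPF, and 17.9%, 20.3% and 7.85% of all genes reached that level. With edgeR the adjusted counts were 0, 0 and 0, and with DESeq2 they were 0, 1 and 0, the 1 being Mat2a, in RPF, where DESeq2 called 1095 of 9580 genes. The median log2 change of the 7 enzymes was 0.25 in mRNA, -0.17 in RPF and -0.36 in TE, beside medians of 0.0132, 0.0144 and -0.00143 over all genes tested. In mRNA 5 estimates lay above 0 and 2 below, in RPF 2 above and 5 below, and in TE 1 above and 6 below. These medians and tallies moved on leaving out 1 clone. The mRNA median was 0.07 without R98S clone 13, 0.15 without R98S clone 35, 0.03 without WT clone 28 and 0.06 without WT clone 29. That in RPF was -0.09 without R98S clone 11, 0.05 without WT clone 28 and -0.39 without WT clone 29, and that in TE was -0.20 without R98S clone 13, -0.07 without WT clone 28 and -0.59 without WT clone 36. Without WT clone 28 the RPF tally turned to 4 above and 3 below, with 4 and 3 in mRNA too. The 95% confidence interval of the log2 change lay within 1 on either side of 0 for 4 of 7 enzymes in mRNA, 6 of 7 in RPF and 4 of 7 in TE, so a log2 change of 1 in the direction of the estimate was not outside the interval for Mtr, Mat2a and Ahcy mRNA, for Mat2a footprints, or for the TE of Mthfd1, Mtr and Ahcy. Psph, by contrast, rose by 3.01 in mRNA and 4.36 in RPF on the log2 scale. The TE estimate of Psph was 1.36 and did not pass (limma adjusted p = 0.404).

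**Figure D1:**
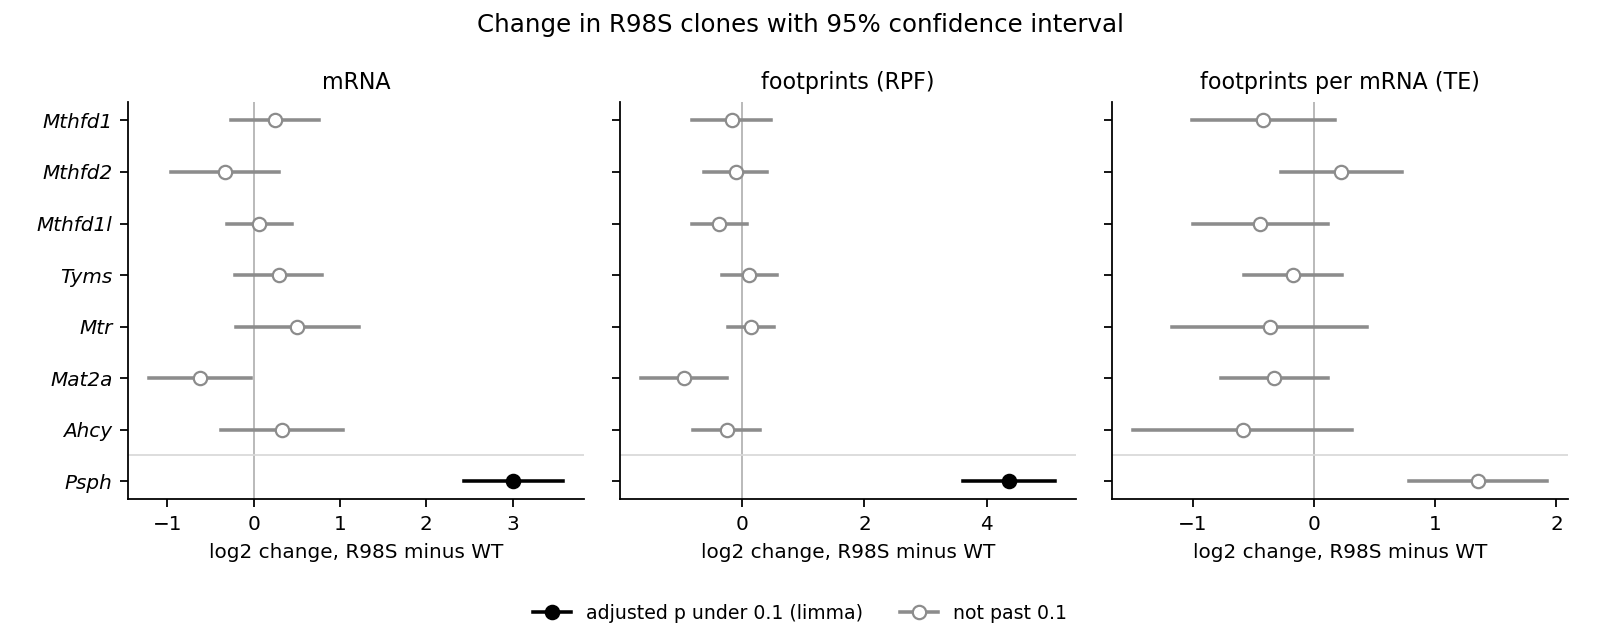
Log2 change of mRNA, footprints and TE in R98S against WT clones (x axis, scaled separately in each panel) for the 7 tested enzymes and Psph (y axis), as the limma estimate with its 95% confidence interval, n = 3 clones a genotype. Open symbols did not pass an adjusted p of 0.1, and among the enzymes only the Mat2a intervals in mRNA and RPF lie wholly below 0.

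In the cytosol, the trifunctional enzyme Mthfd1 (chr12:76255298-76319803, plus strand, mm10) interconverts the folate forms used for purines, thymidylate and methionine. In R98S clones 11, 13 and 35, its mRNA measured 2757, 2825 and 2489.7 normalized counts, and in WT clones 28, 29 and 36 it measured 2452, 1604 and 2951. The footprints measured 1703, 1835 and 1693 in the R98S clones and 3241, 1224 and 1905 in the WT clones. In both assays WT clone 29 was lowest, the highest value was that of a WT clone, and the R98S clones lay close together between these. The mean mRNA level was 2690.4 ± 177 (SD, n = 3) in R98S and 2336 ± 681 (SD, n = 3) in WT, a log2 change of 0.25, and without WT clone 29 the change was -0.00185. In that clone the median deviation of all chromosome 12 genes from the 6-clone mean was -0.23 in mRNA and -0.22 in RPF, on the log2 scale, and that of Mthfd1 was -0.62 and -0.59. With the chromosome medians removed, the Mthfd1 mRNA change was 0.18.

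In mitochondria, Mthfd2 (chr6:83305691-83325908, minus strand) oxidizes methylene-tetrahydrofolate, and it is known for being high in dividing and transformed cells. Its mRNA stood at 2979, 3378 and 5182 normalized counts in the R98S clones and at 6056, 3223 and 5369.5 in the WT clones. Its footprints stood at 1349.7, 1380.4 and 1407 in the R98S clones and at 1842, 1001 and 1780.3 in the WT clones. R98S clone 35 sat with WT clones 28 and 36 in mRNA, while the 3 R98S footprint values lay within the WT range. Mthfd1l (chr10:3973118-4167081, plus strand), which releases formate from formyl-tetrahydrofolate for export to the cytosol, stood at 3538, 3356 and 2852 mRNA counts in R98S and at 2779, 3099.6 and 3443 in WT. Its footprints stood at 2362, 2557 and 2072 in R98S and at 3964, 2540.3 and 2721 in WT, where R98S clone 13 lay just above the lowest WT clone and WT clone 28 well above all others. The log2 change of Mthfd1l footprints was -0.38 (SE 0.21, limma adjusted p = 0.335, below the WT mean in 3 of 3 R98S clones, a count made on the log2 scale here and below), and it was -0.18 without WT clone 28. A pseudogene, Gm16074, and a small nuclear RNA gene, Gm25515, lie inside Mthfd1l on the same strand.

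**Figure D2:**
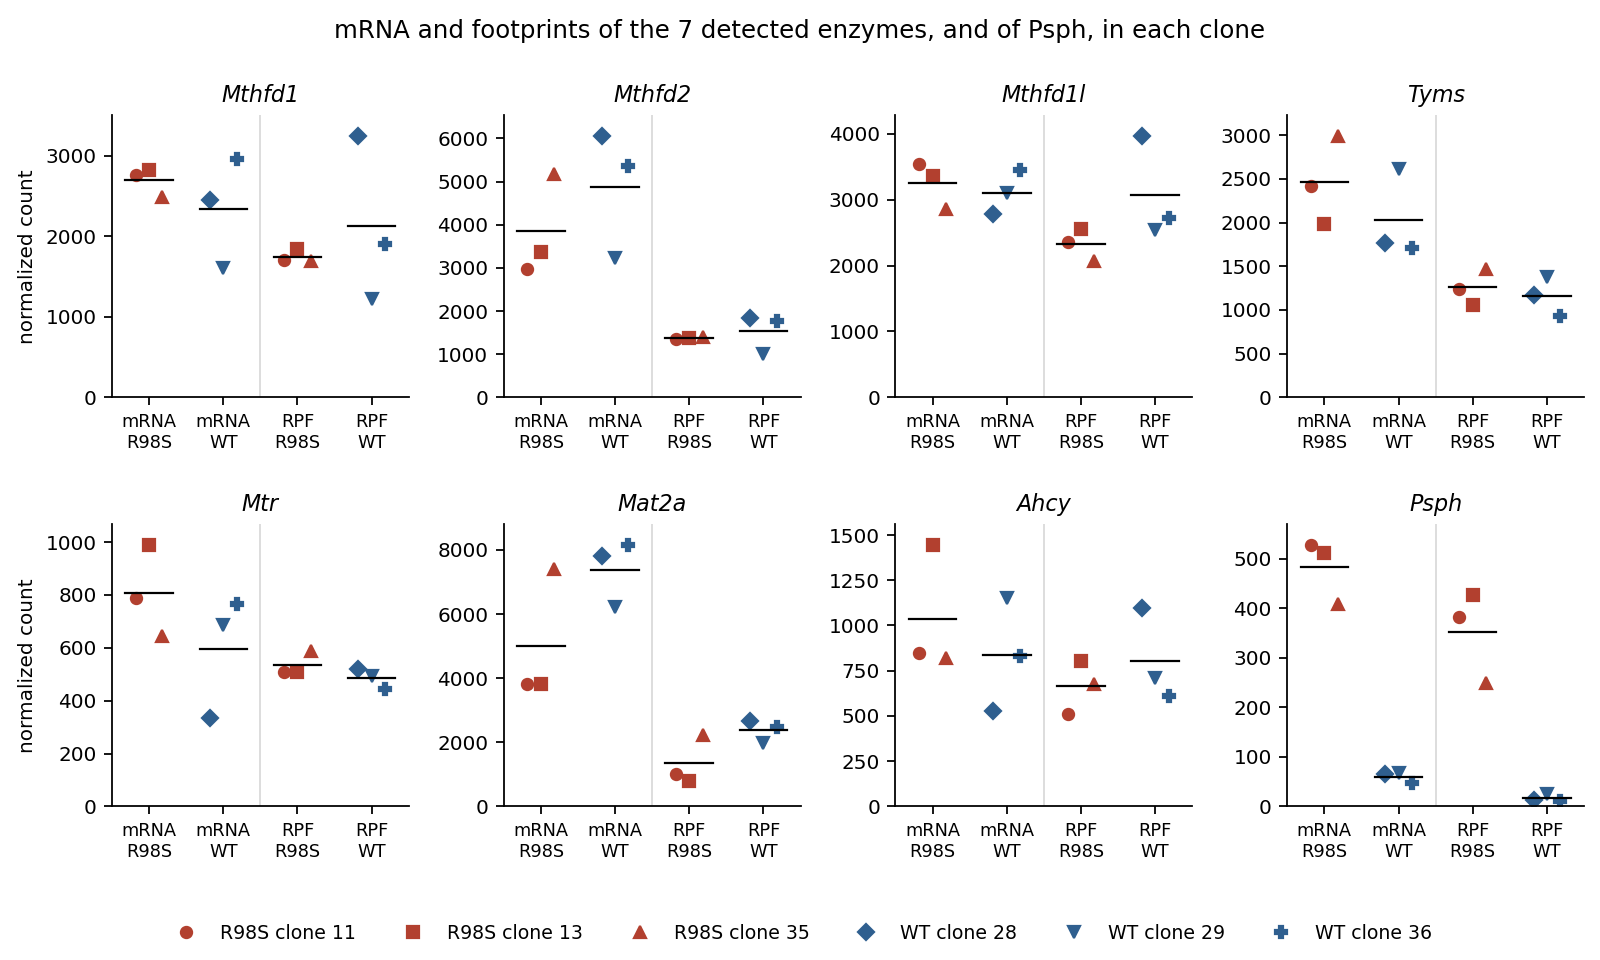
Normalized counts (y axis, from 0, scaled separately in each panel) of mRNA and footprints for the 7 detected enzymes and Psph in 3 R98S and 3 WT clones (x axis), with 1 point a clone and a line at the mean of each group. Only Psph separates the genotypes in both assays, and for Mat2a R98S clone 35 sits among the WT clones while clones 11 and 13 sit below them.

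Thymidylate synthase, Tyms (chr5:30058202-30073617, minus strand), makes dTMP and uses up methylene-tetrahydrofolate on the way. The mRNA level was 2424, 1989 and 2991 normalized counts in the R98S clones and 1764, 2611 and 1709 in the WT clones. The footprint level was 1243, 1058 and 1473 in R98S and 1171, 1383 and 933 in WT. The order of clones was alike in both assays, with R98S clone 35 and WT clone 29 highest, and the genotypes overlapped. The log2 change was 0.29 in mRNA (SE 0.22, limma adjusted p = 0.549, above the WT mean in 2 of 3 R98S clones) and 0.12 in RPF (SE 0.20, limma adjusted p = 0.779, 2 of 3). On leaving out 1 clone, the mRNA change ran from 0.14 without R98S clone 35 to 0.49 without WT clone 29, and that in RPF from -0.03 to 0.25. Tyms is made mainly in S phase, and of 17 S phase genes listed for the share of cycling cells 0 passed in mRNA, RPF or TE with limma, with 3, 3 and 2 at an unadjusted p under 0.05. By edgeR 0, 1 (Uhrf1) and 0 of them were lower in R98S, and by DESeq2 1 (Uhrf1), 2 (Rrm2 and Uhrf1) and 0. Their median log2 change was 0.01 in mRNA, -0.15 in RPF and -0.25 in TE, and their summed mRNA level was 58873 to 66677 in R98S and 57264 to 59541 in WT, Rrm1 being the most abundant. In bulk libraries, fewer cells in S phase and less RNA per cell cannot be told apart.

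Methionine synthase, Mtr (chr13:12182712-12258113, minus strand), passes the methyl group of methyl-tetrahydrofolate to homocysteine and so joins the cycles. Its mRNA stood at 789.9, 988 and 645 normalized counts in the R98S clones and at 333, 686 and 764 in the WT clones. Mtr footprints were at 509, 510.4 and 589 in R98S and at 519.7, 492 and 443 in WT, a narrower band. WT clone 28 had the lowest Mtr mRNA, from 124 reads, yet its footprints were within the range of the other clones. The log2 change of Mtr mRNA was 0.51 (SE 0.32, limma adjusted p = 0.448, above the WT mean in 3 of 3 R98S clones), the highest estimate among the 7 enzymes, and it was 0.14 without WT clone 28.

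Mat2a (chr6:72432799-72439558, minus strand) makes S-adenosylmethionine from methionine and ATP in cells outside the liver, and it gave the lowest estimates of the 7 in mRNA and RPF. In mRNA the R98S clones 11, 13 and 35 had 3809, 3831 and 7408 normalized counts of it, while WT clones 28, 29 and 36 had 7796, 6211 and 8148. In footprints they had 1003, 806 and 2225 against 2664, 1976 and 2471. R98S clones 11 and 13 were below every WT clone in both assays, while R98S clone 35 lay inside the WT range in both, so the genotypes overlapped. The mean mRNA level was 5016 ± 2072 (SD, n = 3) in R98S and 7385 ± 1032 (SD, n = 3) in WT, a log2 change of -0.62 (SE 0.26, limma adjusted p = 0.252, below the WT mean in 2 of 3 R98S clones). The mean footprint level was 1345 ± 769 (SD, n = 3) in R98S and 2370.4 ± 355 (SD, n = 3) in WT, a log2 change of -0.95 (SE 0.32, limma adjusted p = 0.128, 3 of 3). Without R98S clone 35, the changes were -0.94 in mRNA (limma adjusted p = 0.0447) and -1.39 in RPF (limma adjusted p = 0.00765), past the threshold in both, so the call turns on that clone. Over the 6 ways of leaving out 1 clone, the adjusted p of limma ran from 0.0447 to 0.622 in mRNA and from 0.00765 to 0.417 in RPF. DESeq2 on the recovered reads called the footprints of Mat2a with all clones kept, at -0.82 (DESeq2 adjusted p = 0.0835). None of the other settings with all clones kept called it, and their adjusted p ran from 0.125 to 0.183.

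The level of Mat2a mRNA is known to be set in part through hairpins after its stop codon, which the methyltransferase METTL16 binds and methylates at a short motif, and whose use depends on S-adenosylmethionine. Because the estimates of Mat2a in mRNA and RPF lie furthest from 0 among the enzymes, those sites are printed here as the mm10 genome gives them. The motif TACAGANAA was searched in the 1494 bases after the stop codon of transcript Mat2a-201, where it occurs 6 times on the strand of the gene and 0 times on the other strand. Each site is written 5′ to 3′ on the minus strand of chromosome 6, in 29 bases with the motif in capitals, and its 9 capitals begin 40, 824, 1003, 1118, 1229 and 1337 bases after the stop codon, counted from 1.
Mat2a site 1: tggcgtaggtTACAGAGAAgccttcaagc
Mat2a site 2: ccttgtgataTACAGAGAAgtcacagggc
Mat2a site 3: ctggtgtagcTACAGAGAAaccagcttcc
Mat2a site 4: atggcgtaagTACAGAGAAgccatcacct
Mat2a site 5: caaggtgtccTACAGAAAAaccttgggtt
Mat2a site 6: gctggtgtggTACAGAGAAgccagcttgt
The printed windows run from chr6:72434235-72434263 for site 1 to chr6:72432938-72432966 for site 6. Of the last 1494 transcript bases of 16927 protein-coding genes, 5.46% hold the motif at least 1 time, 6.79% hold it on the other strand and 11.8% on either, while 6 or more matches occur in 1 gene, Mat2a itself. The motif was searched because it is known from these Mat2a hairpins, so the count that sets Mat2a apart is no independent result. A match is a string of letters, and neither binding nor methylation was measured in these libraries. Mettl16 itself, a gene added after its place in Mat2a control came up, had a log2 change of 0.39 in mRNA (SE 0.24, limma adjusted p = 0.435, above the WT mean in 3 of 3 R98S clones) and 0.61 in RPF (SE 0.27, limma adjusted p = 0.231, 3 of 3), and did not pass in either.

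Ahcy (chr2:155059310-155074497, minus strand) splits S-adenosylhomocysteine, which otherwise inhibits methyltransferases, into adenosine and homocysteine. Its mRNA stood at 846, 1444 and 820.1 normalized counts in the R98S clones and at 526, 1153 and 829 in the WT clones. Its footprints stood at 509, 804 and 675 in R98S and at 1095, 709 and 607 in WT. R98S clone 13 was highest in mRNA, WT clone 28 was lowest in mRNA and highest in RPF, and the genotypes overlapped in both. In R98S clone 13 the median deviation of all chromosome 2 genes was 0.28 in mRNA and 0.26 in RPF, on the log2 scale, beside 0.69 and 0.17 for Ahcy. The log2 change of Ahcy mRNA was 0.33 (SE 0.32, limma adjusted p = 0.638, above the WT mean of the log2 values in 3 of 3 R98S clones, with R98S clone 35 just under the plain WT mean), 0.22 with the chromosome medians removed and 0.03 without WT clone 28. Without R98S clone 13 this change was 0.07, and without WT clone 29 it was 0.60.

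The Ahcy counts carry a further uncertainty, because the genome holds close copies of it. Of 1207 runs of 30 bases in its counted coding sequence, 1187 (98.3%) occur without mismatch elsewhere, on chromosomes 1, 16 and X, and only 20 are its own. The gene Gm4737 on chromosome 16 has the whole Ahcy coding sequence of 1296 bases with 4 substitutions, an identity of 99.7%. They are C459T, G474A, C1050T and C1068T, with the Ahcy base given before the position, the Gm4737 base after it, and positions counted from 1 at the start codon of Ahcy. The 30 bases around 2 of them, C459T and G474A, show how little separates the genes, with the differing bases in capitals, both read on minus strands, at chr2:155064891-155064920 and chr16:46154532-46154561.
Ahcy: gaggtatCtctgaggagaccacGactgggg
Gm4737: gaggtatTtctgaggagaccacAactgggg
Gm4737 had 25.2% to 28.9% of the Ahcy mRNA counts and 8.99% to 11.2% of the Ahcy footprint counts over the 6 clones. Summed over both genes, the log2 difference between R98S and WT clones was 0.35 in mRNA and -0.24 in RPF (exact permutation p = 0.5 in each, two-sided, smallest possible 0.1). For Mat2a 427 of 1096 runs (39.0%) recur on chromosome 5, for Tyms 304 of 832 (36.5%) recur on chromosomes 10 and 14, and for Mthfd1l 13 of 2842 (0.457%) recur on chromosome 12. For Mthfd1, Mthfd2, Mtr and Psph the number was 0. The authors dropped secondary alignments and those with a mapping quality under 10. The values of Ahcy, and less so of Mat2a and Tyms, are uncertain by whatever reads such copies gave or took.

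Cbs (chr17:31608894-31637238, minus strand) commits homocysteine to transsulfuration. It had 0 reads in all 6 mRNA libraries, and it is not listed in the footprint table. A count of 0 allows up to 3 reads, which is 2.35 to 2.58 normalized counts in 5 of the mRNA libraries and 8.06 in WT clone 28, and such floors cover counting error only. Cth, the enzyme after Cbs on that route, had at most 5.73 normalized counts in any mRNA library, so this exit from the methionine cycle was near or below detection in both genotypes.

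Footprints per mRNA were where the estimates of the enzymes leaned furthest to one side, with 6 of 7 below 0. The lean was not theirs alone, as 14 of 17 S phase genes lay below 0 in TE too. So did 19 of 32 other pathway genes and 4541 of all 9043 genes. Of the 6 omissions of 1 clone, that of WT clone 28 brought the median of the enzymes nearest to 0. Mthfd1 had 0.618, 0.650 and 0.680 footprint counts per mRNA count in the R98S clones and 1.32, 0.763 and 0.646 in the WT clones. Mtr had 0.645, 0.516 and 0.914 in R98S and 1.56, 0.718 and 0.579 in WT. Ahcy had 0.602, 0.557 and 0.823 in R98S and 2.08, 0.615 and 0.733 in WT. In each of these, WT clone 28 stood far above the rest, and WT clones 29 and 36 lay within or near the R98S range. WT clone 28 had the highest ratio for 6 of 7 enzymes, all but Mthfd2, and for 34.2% of all 9043 genes, while each other clone had it for 11.1% to 17.8% of genes. Without WT clone 28 the median TE change of the 7 enzymes was -0.07 in place of -0.36, with 2 above 0 and 5 below, and Mtr went from -0.36 to 0.06, Ahcy from -0.59 to -0.04, Mthfd1 from -0.42 to -0.11 and Mthfd1l from -0.44 to -0.17. That clone is the one with the shallow mRNA library, and it also had a summed level of 467 for 4 neutrophil and monocyte markers in mRNA, against 1.59 to 25.8 in the other mRNA libraries. Cd14 was the most abundant of those 4 genes, with 429.7 normalized counts in WT clone 28, and Csf1r stood at 0 there. Cd14 was also the only 1 of the 4 that could be tested, and 0 of 1 passed in mRNA with limma, edgeR or DESeq2, with 0 at an unadjusted p under 0.05. Whether depth or these markers had a part in the high ratios was not tested.

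**Figure D3:**
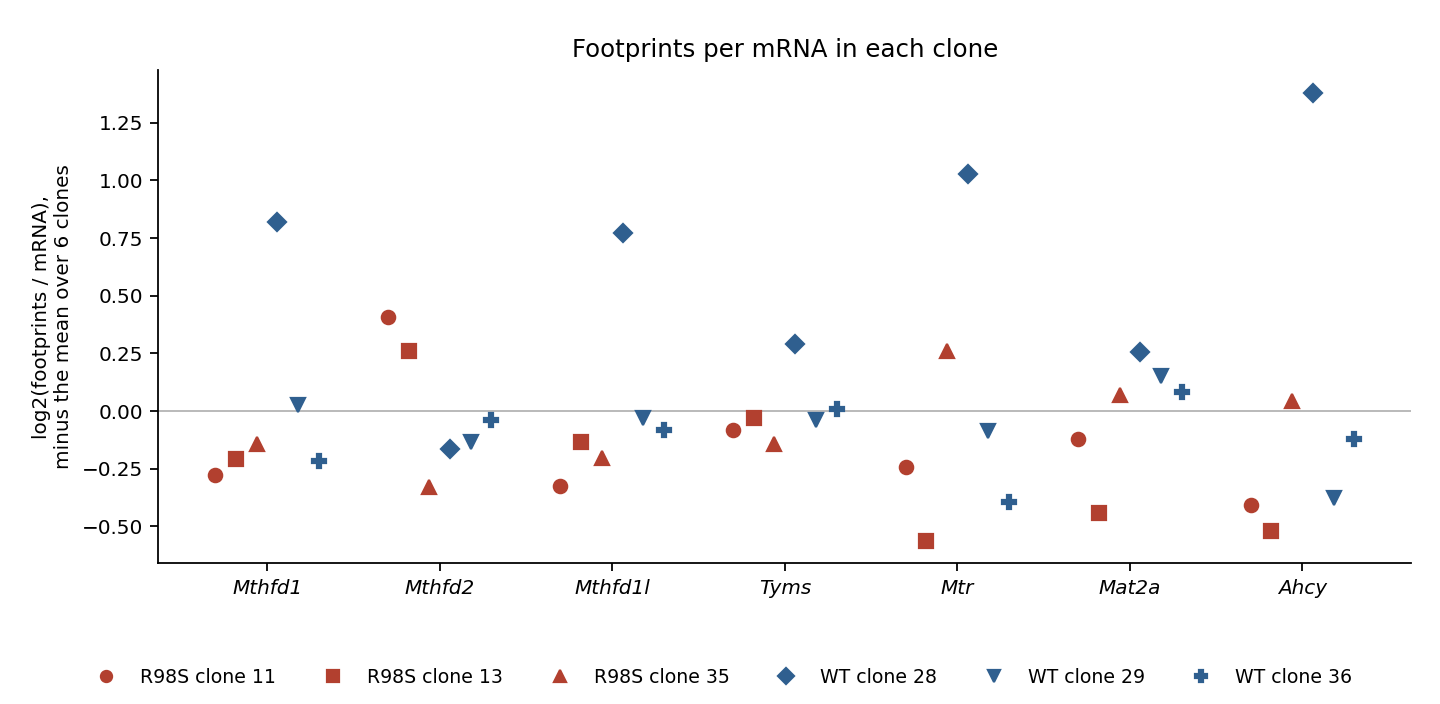
TE of every clone on the log2 scale, minus the mean over the 6 clones of that gene (y axis), for the 7 tested enzymes (x axis), with 1 point a clone. WT clone 28 is the highest point for every enzyme but Mthfd2, by a wide gap for Mthfd1, Mthfd1l, Mtr and Ahcy.

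For 2 of 7 enzymes, Mthfd1l and Mat2a, the ratios of R98S and WT clones did not overlap, in a table where 14.8% of genes had such a gap, and 0 of 7 were without overlap in mRNA (23.5% of genes) or RPF (25.3% of genes). Mthfd1l had 0.667, 0.762 and 0.727 footprint counts per mRNA count in the R98S clones and 1.43, 0.820 and 0.790 in the WT clones. Mat2a had 0.263, 0.210 and 0.300 in R98S and 0.342, 0.318 and 0.303 in WT. Both were lower in all R98S clones than in any WT clone, with a gap for Mat2a between 0.300 and 0.303 only. Exact permutation gave p = 0.1 for each, the smallest that 3 against 3 allows. Any gene without overlap gets that value, so the test adds nothing to the gap. The TE change of Mat2a was -0.33 (SE 0.20, limma adjusted p = 0.682, 3 of 3 R98S clones below the WT mean). On leaving out 1 clone, that change ran from -0.445 without R98S clone 35 to -0.189 without R98S clone 13. When the 12 libraries were fitted without the pairing of a clone's libraries, as a test without the replicate block, 0 of 7 enzymes and 3 genes in all passed in TE. Mthfd2 alone had an estimate above 0, at 0.23, which was 0.08 without R98S clone 11, 0.15 without R98S clone 13 and 0.45 without R98S clone 35, with ratios of 0.453, 0.409 and 0.272 in R98S and 0.304, 0.310 and 0.332 in WT, and R98S clone 35 lay below all WT clones.

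The enzymes differ widely in level when compared per kilobase of exon for mRNA. The mean over 6 clones was 1382 normalized counts per kilobase for Mat2a (range 849 to 1816), 1252 for Mthfd2 (854 to 1737), 717 for Mthfd1l (627 to 798), 566 for Mthfd1 (361 to 664), 369 for Tyms (281 to 491), 334 for Ahcy (188 to 515) and 82.2 for Mtr (39.1 to 116). In that order Mat2a and Mthfd2 overlapped between clones, as did Mthfd1l with Mthfd1, Mthfd1 with Tyms and Tyms with Ahcy, while the range of Mthfd2 lay above that of Mthfd1l and the range of Mtr below all others. These levels correspond to percentiles 94.9 for Mat2a and 34.4 for Mtr among 10820 genes with a mean of at least 10 and a known length. Per kilobase of counted coding sequence, the mean over 6 clones was 1651 for Mat2a (717 to 2368), 1475 for Mthfd2 (1011 to 1860), 1405 for Tyms (1084 to 1710) and 138 for Mtr (120 to 159), the lowest of the 7. The first 3 overlapped between clones and their order differed by genotype, with means of 1195, 1393 and 1461 in R98S and 2107, 1556 and 1350 in WT. Tyms moved up in that order, from percentile 77.1 in mRNA to 90.8 in footprints, and its footprint density per mRNA density was at percentile 95.0 of 8788 genes in R98S and 96.2 in WT. Exon length was taken over all annotated transcripts of a gene, so a gene whose longest 3′ end is not used in these cells reads low in mRNA per kilobase.

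**Figure D4:**
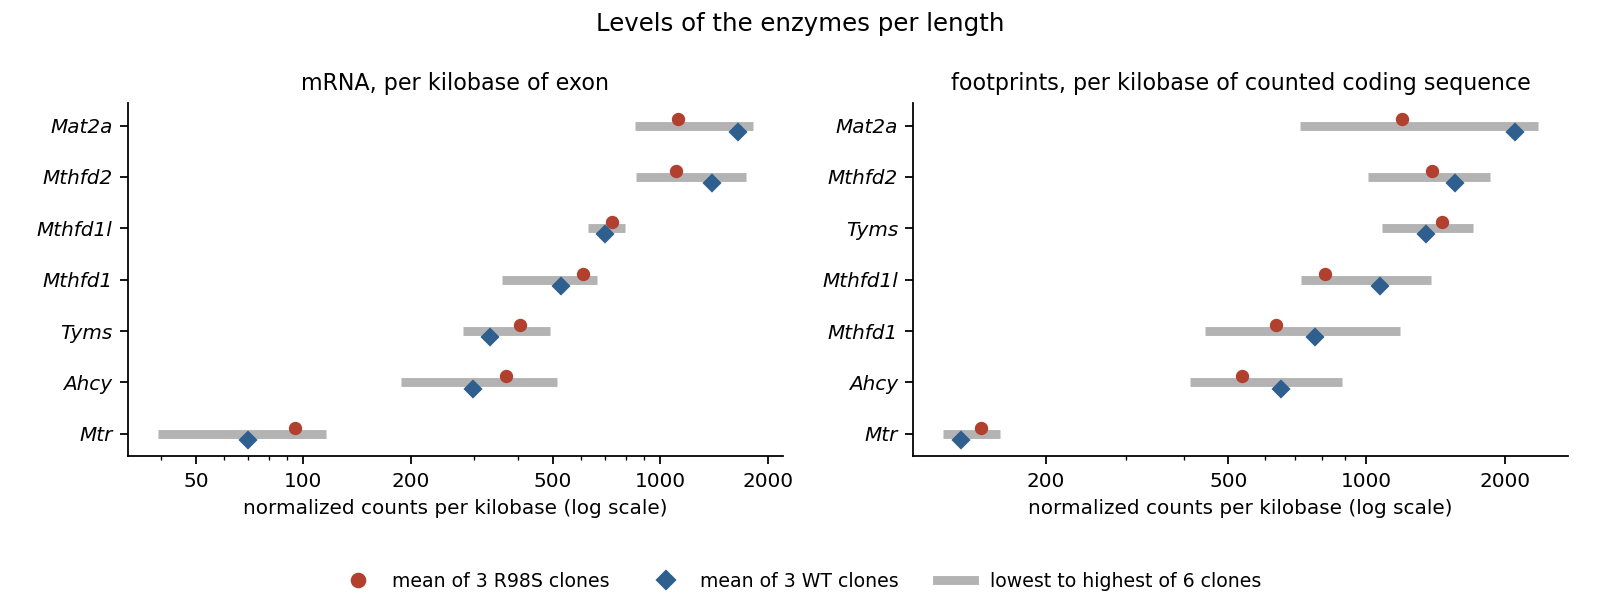
Normalized counts per kilobase (x axis, log scale) of mRNA and of footprints for the 7 tested enzymes (y axis, ordered by the mean of each assay), with the mean of each genotype as a symbol and the range of all 6 clones as a bar. By the mean of all 6 clones Mat2a and Mthfd2 are highest and Mtr is lowest in both, while in R98S footprints Tyms is highest.

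Together the enzymes took 0.0974% to 0.127% of the counted mRNA reads of the R98S clones and 0.104% to 0.128% of those of the WT clones, which overlap. For footprints the shares were 0.150% to 0.174% in R98S and 0.159% to 0.212% in WT, with WT clone 28 at the upper end. The enzymes did not vary as a block from clone to clone. Over the 12 libraries, each assay centred on its own mean, 5 of 21 pairs of enzymes had a Pearson r above 0.5 and 8 of 21 had one below 0, as a description over clones that share libraries. Mtr and Ahcy had 0.69, Mthfd1 and Mthfd1l had 0.69, Mthfd2 and Mat2a had 0.56, and Mthfd2 and Mtr had -0.55. These values differed between the assays. In mRNA and in RPF alone, Mtr and Ahcy had 0.86 and 0.19, and Mthfd1 and Mthfd1l had 0.39 and 0.80. Mthfd2 and Mat2a had 0.85 and 0.35, and Mthfd2 and Mtr had -0.66 and -0.16. Among 9042 other genes, the patterns most like each enzyme over the 12 libraries were Tars and Polr1a for Mthfd1 (r of 0.967 and 0.966), Alkbh1 and Mettl25 for Mthfd2 (0.957 and 0.951), and Prep and Got2 for Mthfd1l (0.945 and 0.944). For the others they were Ldhc and Pdzd8 for Tyms (0.961 and 0.946), Tmem131 and Clasp1 for Mtr (0.969 and 0.958), Fam60a and Cyp51 for Mat2a (0.973 and 0.970), and Gm4737 and Snrnp200 for Ahcy (0.972 and 0.946). The likeness of Ahcy and Gm4737 is between genes whose reads can hardly be told apart. Among 63 listed genes, S phase genes and markers included, Shmt2 followed Mthfd1 most closely, at 0.960. Shmt2 is the mitochondrial enzyme that passes the serine carbon to folate. The closest listed genes were Enoph1 for Mthfd2 (0.784), Chaf1a for Mthfd1l (0.869) and Cd79a for Tyms (0.777). They were Rrm1 for Mtr (0.782), Uhrf1 for Mat2a (0.760) and Mcm5 for Ahcy (0.920).

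Upstream of the cycles, Psph (chr5:129765558-129787449, minus strand) removes the phosphate in the last step of serine synthesis. Its mRNA stood at 527, 512 and 407 normalized counts in the R98S clones and at 64.4, 67.6 and 46.2 in the WT clones, and its footprints at 382, 426 and 249 and at 12.4, 26.0 and 11.9. Every R98S clone was several times above every WT clone in both, including R98S clone 35, in which Mat2a was within the WT range. The log2 change was 3.01 in mRNA (SE 0.26, limma adjusted p = 0.000297, 3 of 3 R98S clones above the WT mean) and 4.36 in RPF (SE 0.34, limma adjusted p = 0.00017, 3 of 3). Psph had 0.724, 0.832 and 0.610 footprint counts per mRNA count in the R98S clones and 0.193, 0.385 and 0.257 in the WT clones. The log2 change in TE was 1.36 (SE 0.25, limma adjusted p = 0.404), which did not pass. The authors, who tested TE with Babel, reported a higher TE of Psph in R98S. Cct6a overlaps Psph on the opposite strand, and whether the counts were kept apart by strand is not stated. With limma and edgeR the other enzymes of serine and glycine synthesis did not pass, while DESeq2 called 1 more in mRNA and in RPF, Phgdh, as lower. Phgdh, which starts the pathway, had the lowest estimates of that list, -0.69 in mRNA (SE 0.26, limma adjusted p = 0.191, below the WT mean in 3 of 3 R98S clones) and -0.77 in RPF (SE 0.25, limma adjusted p = 0.117, 3 of 3). With the chromosome medians removed the Phgdh changes were -0.43 and -0.48 (limma adjusted p = 0.406 and 0.312), and without WT clone 29 they were -0.94 and -1.001 and passed (limma adjusted p = 0.0778 and 0.0495). Over the 6 ways of leaving out 1 clone, the limma adjusted p of Phgdh ran from 0.0778 to 0.469 in mRNA and from 0.0495 to 0.286 in RPF.

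Of 46 other genes of serine, glycine, folate and methionine metabolism, 39 could be tested in mRNA, of which 3 rose and 1 fell, 33 in RPF, of which 2 rose and 1 fell, and 32 in TE, of which 0 passed with limma, with 2 at an unadjusted p under 0.05. Psph, whose rise prompted this follow-up, is 1 of the 46 and is among those that rose in mRNA and in RPF. Its calls were thus known beforehand and are no result of these counts. Over all genes tested the shares past the threshold were 6.94% in mRNA and 7.76% in RPF. In TE 7.85% of them had an unadjusted p under 0.05. With edgeR the counts were 3 higher and 1 lower in mRNA, 2 and 1 in RPF and 0 in TE, and with DESeq2, which added Phgdh, 3 and 2, 2 and 2, and 0. The median log2 change over these genes was 0.03 in mRNA, -0.04 in RPF and -0.06 in TE. In serine and glycine synthesis 1 of 5 rose in both mRNA and RPF, Psph. In glycine cleavage 0 of 4 passed in mRNA and 0 of 3 in RPF with limma, with 1 and 1 at an unadjusted p under 0.05, and among other folate enzymes 0 of 8 and 0 of 6, also with 1 and 1. Thymidylate supply gave 0 of 4 in both, with 0 and 1 at that level, and the purine steps that use formyl folate gave 0 of 2 in both, with 0 and 0, by limma again. In folate transport 1 of 5 rose in mRNA and 1 of 3 in RPF, both times Folr1, and in the other genes of the methionine cycle 1 of 6 rose in mRNA and 0 of 5 in RPF with limma, with 2 at an unadjusted p under 0.05. In transsulfuration and methionine salvage 1 of 5 fell in mRNA and in RPF, Mtap. For each list with a count of 0 in this paragraph, edgeR and DESeq2 gave 0 as well.

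Folr1, a folate receptor at the cell surface, stood at 228, 223 and 272 mRNA counts in the R98S clones and at 69.8, 72.6 and 18.0 in the WT clones. It rose by 2.38 on the log2 scale in mRNA (limma adjusted p = 0.0274, 3 of 3 R98S clones) and by 2.03 in RPF (limma adjusted p = 0.00973, 3 of 3), and without R98S clone 13 the log2 change in mRNA was 2.43 and did not pass (limma adjusted p = 0.104). Folr1 overlaps Anapc15 on the opposite strand. Mtap, which returns the methylthio group of methylthioadenosine to methionine salvage, stood at 11322, 8649.9 and 9385 mRNA counts in R98S and at 17686, 20899 and 25251 in WT. It fell by 1.11 on the log2 scale in mRNA (limma adjusted p = 0.0137, 3 of 3 R98S clones) and by 1.00 in RPF (limma adjusted p = 0.0582, 3 of 3), where the call was lost on leaving out R98S clone 13, R98S clone 35, WT clone 29 or WT clone 36, with adjusted p of 0.219, 0.112, 0.119 and 0.170 and log2 changes of -0.96, -0.81, -0.90 and -0.88. A processed pseudogene, Gm12607, overlaps Mtap on the opposite strand. Mmachc, which prepares the cobalamin that Mtr needs, stood at 419.9, 462 and 375 mRNA counts in R98S and at 234, 197 and 275 in WT, and rose by 0.84 on the log2 scale (limma adjusted p = 0.0711, 3 of 3 R98S clones). Its call was lost with the chromosome medians removed (0.66, limma adjusted p = 0.144), and on leaving out R98S clone 11, R98S clone 13, WT clone 29 or WT clone 36, with adjusted p of 0.247, 0.274, 0.163 and 0.113 and log2 changes of 0.83, 0.76, 0.72 and 0.96.

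**Figure D5:**
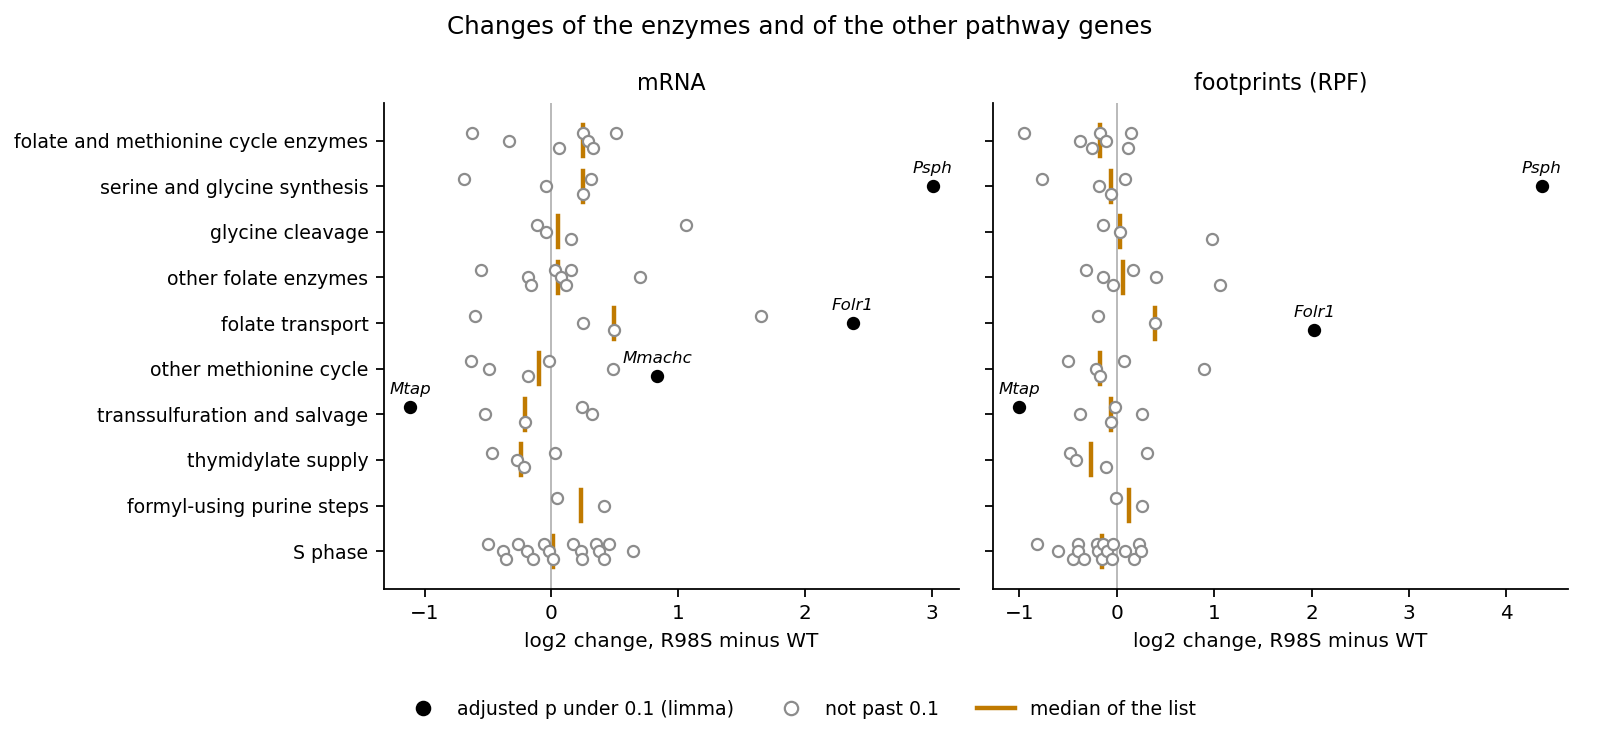
Log2 change of mRNA and footprints in R98S against WT clones (x axis) for each tested gene of the lists (y axis), with 1 point a gene, the median of each list as a bar, and genes past an adjusted p of 0.1 (limma) filled and named. Psph and Folr1 lie to the right and Mtap to the left in both panels, and the folate and methionine cycle enzymes hold no filled point.

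The identity of the cells was checked against marker genes in the same libraries. All 4 Ba/F3 markers were detected in every library, Csf2rb most abundantly, with summed mRNA levels of 120902, 99455 and 120876 in the R98S clones and 46935, 92744 and 63429 in the WT clones. Of these 4, with limma and edgeR 1 rose in mRNA (Csf2rb2), and in RPF 2 rose (Csf2rb and Csf2rb2) and 1 fell (Ptprc). DESeq2 called those 3 in both. Of 8 B lineage markers only Cd79a and Cd79b reached a mean of 10, Pax5 and Rag1 stood at 0 in all mRNA libraries, and 0 of 2 passed with limma or edgeR in either assay, with 1 and 1 at an unadjusted p under 0.05 and 1 and 1 (Cd79b) by DESeq2. Their summed mRNA level ran from 1350 to 1671 in R98S and from 893 to 1155 in WT, with Cd79a the most abundant. Of 5 T lineage markers only Cd3d could be tested, with 0 of 1 past the threshold in mRNA by limma and edgeR, 1 at an unadjusted p under 0.05, 1 by DESeq2, and 1 of 1 higher in RPF. The summed mRNA level of these 5 ran from 49.9 to 86.5 in R98S and from 7.42 to 48.3 in WT. Of 5 mast cell and basophil markers 3 were tested, with Cpa3 higher in R98S mRNA and RPF and Gata2 lower in mRNA by all 3 tools, Gata2 the most abundant and Kit at 0 throughout. The summed mRNA level of these 5 ran from 12073 to 15792 in R98S and from 20365 to 26532 in WT. The erythroid marker Hba-a1 stood at 4.76, 1.64 and 2.58 normalized mRNA counts in the R98S clones and at 169, 28.9 and 36.8 in the WT clones, and it fell in R98S with each tool. What these differences between clones contribute to the enzyme values was not tested.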

How the data were processed

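Ribosome footprints and mRNA were measured in 6 clones, 3 R98S and 3 WT. The authors deposited 1 table per assay in the unit signal, that is gene counts divided by the DESeq2 size factor of each library. The authors removed rRNA and tRNA reads with Bowtie2, aligned to mm10 with TopHat2 2.0.11, dropped secondary alignments and those with a mapping quality under 10, and counted exons for mRNA and coding sequence without the first 15 and last 5 codons for footprints. The 3 technical replicates of each footprint library were merged. The counter and its use of strand are not stated. Whole reads were recovered from the deposited values, and depth limits the precision of each value to at least its counting error.

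Changes were tested with limma 3.58.1 (R 4.3.3) with a variance trend on log2(value + 1) for genes with a mean of at least 10, and for TE on the log2 ratio within each clone for genes with at least 10 in all 12 libraries. P-values are two-sided, adjusted by Benjamini-Hochberg over all tested genes, with a threshold of 0.1. Single values were compared by exact permutation. The fits were tested on simulated data. edgeR 4.0.16 and DESeq2 1.42.0 on whole reads, other pseudocounts and filters, TMM scaling, removal of chromosome medians, a TE fit with no replicate block, and leaving out each clone were the alternatives. Copies were searched with BLAST 2.17.0 in the mm10 genome, and sequences were read with pysam 0.24.0. Places and lengths came from GENCODE, which matched 8 of 8 enzymes. No table of amino acid sequences was at hand, and protein levels were not part of these tables.

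The enzymes, gene lists and markers were chosen with earlier results of these data known. Named genes are the 8 enzymes, Psph, genes of the lists past the threshold with examples of the others, and for each enzyme the 2 genes most like it. Mettl16, Gm4737 and the counts by clone of the highest ratio were chosen after values were seen. Rpl10 was left out of the comparisons, since reads of the knocked-down gene and the transgene were not separated.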

Additional observations from a re-analysis of the deposited data

How the results depend on the processing

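For the 7 tested enzymes in mRNA, RPF and TE, 160 of 161 changes under other settings and 115 of 126 under the omission of 1 clone kept their direction and their side of the threshold, while 2 passed it and 9 reversed. The exception among the settings was Mat2a in RPF, called by DESeq2, which gave 1 enzyme in RPF in place of 0. Over all genes DESeq2 gave 1095 in RPF in place of 743, 1283 in mRNA in place of 787 and 6 in TE in place of 2. Leaving out 1 clone gave 315 to 1113 genes in mRNA, 229 to 1148 in RPF and 0 to 3 in TE, and 0 to 1 enzymes in mRNA and in RPF, the 1 being Mat2a without R98S clone 35. With no replicate block, 3 genes and 0 enzymes passed in TE. The sign of the log2 change reversed in some omissions of 1 clone, over ranges from -0.00185 to 0.438 for Mthfd1 mRNA, -0.512 to 0.19 for Mthfd1 RPF, -0.393 to 0.047 for Mthfd2 RPF, -0.0139 to 0.155 for Mthfd1l mRNA, -0.03 to 0.254 for Tyms RPF, -0.652 to 0.0608 for Mtr TE, -0.297 to 0.343 for Mmachc TE and -0.0128 to 0.282 for Mtap TE. Mmachc TE was also reversed under the DESeq2 interaction, at -0.0541. The cause was not tested. The filter at 50 in all 12 libraries gave no TE value for Psph, Folr1 and Mmachc. The exact permutation count of 2 enzymes without overlap in TE was the same with each pseudocount. Depth was lowest in WT clone 28 among the mRNA libraries, at 6617457 reads, where Mtr rests on 124, and in R98S clone 35 among the footprint libraries, at 3477723.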
